A study of Homo sapiens with 4 samples.

Results

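10 genes of inflammatory cytokines and chemokines were examined in U251 and U87, established human glioblastoma (GBM) cell lines, with and without brusatol (Bru), a plant-derived compound known as an inhibitor of protein synthesis and of the NRF2 pathway. The members are IL6, CXCL8, CXCL1, CXCL2, CXCL3, CCL2, LIF, IL11, IL1B and CSF1, chosen by their gene names among the 58735 genes of the deposited files. The 4 libraries are U251 Control, U251 Bru, U87 Control and U87 Bru, 1 library per condition. The Bru libraries come from cells kept with Bru for 48 h. The study's text puts its dose at the IC50 without a concentration for the sequenced cells. Bru was dissolved in DMSO, both lines grew in DMEM with serum, and whether the Control cells of the sequenced libraries received DMSO is not stated in the sources used here. No difference below has a replicate check, and in RNA of whole cultures fewer cells of a kind and less RNA per cell cannot be told apart.

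The members are secreted signals of inflammation and wound repair. CXCL8, CXCL1, CXCL2 and CXCL3 are CXC chemokines that attract neutrophils through the receptors CXCR1 and CXCR2, and CCL2 attracts monocytes through CCR2. IL6, LIF and IL11 belong to the family that signals through IL6ST, also known as gp130, to the JAK kinases and STAT3. IL1B is an early inflammatory cytokine that needs cleavage before it acts, and CSF1 is the growth and survival factor of macrophages and microglia. Transcription of most of these genes is known to be driven by NF-kB, AP-1 and C/EBP factors, and many of their mRNAs carry AU-rich elements that make them short-lived. In glioblastoma such factors are known for recruiting myeloid cells and for autocrine growth signals.

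Reads on genes numbered 17083896 to 21453561 in the 4 libraries, and 24388 to 25464 genes had at least 1 read. The level is given as FPKM, fragments per kilobase of gene scaled to the size of the library, and 3 reads were taken as the floor of detection. Among markers of the lines, VIM had an FPKM of 606 to 701 and CD44 of 94.5 to 125. SOX2 reached 129 in U251 before Bru and had 0 reads in U87 before Bru, and S100B had at most 9 reads in any library. NES fell past 2-fold with Bru in both lines, from an FPKM of 125 to 50.6 in U251 (log2 ratio -1.30) and from 1.46 to 0.569 in U87 (-1.23), and GFAP, under the filter, had 614 and 243 reads in U251 and 47 and 31 in U87. Whether these markers and the members are linked was not tested. None of 9 myeloid and 5 lymphoid markers reached the mean FPKM of 1 used as the filter. The myeloid markers summed to an FPKM of 0.538 to 2.10 per library, and the lymphoid markers to 0.0641 to 1.11. Of the myeloid markers, AIF1, TYROBP and P2RY12 had 0 reads in every library, and CX3CR1 and PTPRC had at most 3. CSF1R reached 123 reads and CD68 reached 20, both in U87 Control, and CD14 reached 23 in U251 Bru. ITGAM was higher with Bru, at 13 reads in U251 (1 before) and 37 in U87 (8 before). The 95% exact interval of its log2 ratio lay above 0 in both lines, with a lower bound of 1.14 in each. The 4 endothelial markers summed to 0.891 to 4.42, most of it from KDR in U251.

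The 4 CXC members lie within 359 kilobases of chromosome 4, from 73740506 to 74099293. To show what these genes share before their start sites, the 150 bases upstream of the RefSeq start (GRCh38.p14, 5′ to 3′ on the strand of the gene) are printed for the 7 members found in the promoter table, while CCL2, LIF and CSF1 are not printed. The stretches are chr4:73740419-73740568 for CXCL8 and chr4:73869243-73869392 for CXCL1 on the plus strand, and chr4:74099196-74099345 for CXCL2 and chr4:74038690-74038839 for CXCL3 on the minus strand. Those of IL6 (chr7:22727050-22727199, plus), IL11 (chr19:55370464-55370613, minus) and IL1B (chr2:112836780-112836929, minus) follow. Capitals mark matches to the 5 motifs described after the sequences.
CXCL8: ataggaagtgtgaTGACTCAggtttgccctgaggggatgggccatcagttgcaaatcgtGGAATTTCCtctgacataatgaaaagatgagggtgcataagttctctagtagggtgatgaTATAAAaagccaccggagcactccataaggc
CXCL1: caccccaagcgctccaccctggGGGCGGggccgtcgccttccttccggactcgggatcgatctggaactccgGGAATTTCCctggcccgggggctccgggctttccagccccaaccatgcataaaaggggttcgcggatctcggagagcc
CXCL2: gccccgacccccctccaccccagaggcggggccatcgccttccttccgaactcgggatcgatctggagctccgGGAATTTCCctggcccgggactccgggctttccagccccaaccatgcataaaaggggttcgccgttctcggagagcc
CXCL3: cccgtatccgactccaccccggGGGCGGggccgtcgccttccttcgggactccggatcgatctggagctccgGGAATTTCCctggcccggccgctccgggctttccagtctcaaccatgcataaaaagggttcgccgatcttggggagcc
IL6: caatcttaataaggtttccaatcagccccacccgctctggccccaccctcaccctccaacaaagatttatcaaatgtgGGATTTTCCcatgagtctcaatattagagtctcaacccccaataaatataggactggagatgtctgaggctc
IL11: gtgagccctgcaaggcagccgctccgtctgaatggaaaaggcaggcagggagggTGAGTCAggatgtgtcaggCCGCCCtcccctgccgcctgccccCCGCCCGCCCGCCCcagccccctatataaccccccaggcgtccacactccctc
IL1B: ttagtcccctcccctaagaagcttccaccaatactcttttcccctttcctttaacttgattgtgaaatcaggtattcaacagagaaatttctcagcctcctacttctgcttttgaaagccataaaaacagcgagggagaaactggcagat

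The kB motif was searched as GGANTTTCC, AP-1 as TGANTCA, C/EBP as TTGCNNAA, the TATA box as TATAAA and the GC box as GGGCGG, all on both strands, where N is any base and TGANTCA reads the same on both strands. A kB match stood in 5 of the 7 stretches, those of CXCL8, CXCL1, CXCL2, CXCL3 and IL6, whereas 0.940% of all 35116 promoters of the table hold one in the same 150 bases. The stretches of CXCL1, CXCL2 and CXCL3 are near-copies, so their matches are not independent of each other. Counted back from -1 at the last base before the start, the match began at -91 in CXCL8, at -78 in CXCL1 and CXCL3, at -77 in CXCL2 and at -72 in IL6. An AP-1 match was found in CXCL8 and IL11 (4.17% of all promoters), a TATA match in CXCL8 (6.71%), and GC box matches in CXCL1, CXCL3 and IL11 (36.8%), 3 of them overlapping in IL11. None of the 7 stretches held a C/EBP match (5.02%), which says only that these letters are not in this window. A match is a description of the letters and not of binding. In the annotation of the files, longer transcripts put 63 bases of the CXCL8 stretch, 98 of CXCL2, 118 of CXCL3, 124 of IL1B and all 150 of IL6 inside the gene.

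CXCL1, CXCL2 and CXCL3 are near-copies of each other. Their coding sequences of 324 bases were 90.7% to 94.4% identical, against 51.2% to 53.7% for CXCL8 and each of them, and the 150-base stretches above were 86.7% to 90.0% identical within the trio and 44.7% to 46.7% with CXCL8. Of the stretches of 50 bases in their transcripts, 12.5% of CXCL2, 6.01% of CXCL3 and 4.81% of CXCL1 also occur in another gene of the trio. The split of reads among the 3 genes may therefore be uncertain. These shares do not give its extent, since the sequenced reads were longer and paired. IL6, CXCL8, CCL2, LIF, IL1B and CSF1 shared no such stretch with another gene, and IL11 shared 1.39%.

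AU-rich elements were counted in the longest annotated 3′ UTR of each member as the pentamer ATTTA and the nonamer TTATTTATT, written with T as in the transcript file. All 10 members had a pentamer, as did 74.3% of the 10809 protein-coding genes tested with a 3′ UTR, and 7 of 10 had the nonamer, against 9.59% of those genes. IL11 had 6 nonamers, CXCL2 had 5, CXCL1 had 3, LIF and IL1B had 2 each, and CXCL8 and CXCL3 had 1 each, while IL6, CCL2 and CSF1 had none. Per kilobase, IL6 had 14.0 pentamers and CXCL2 had 13.9, whereas CCL2 had 2.11, LIF 2.18 and CSF1 1.86, near the median of 1.74 over those genes. The only pentamer counted in CCL2 ends at 34256435, whereas the gene ends at 34257203. Other transcripts of CCL2, whose 3′ UTR may lie elsewhere, were not counted. The 30 bases with the most pentamers, in capitals, are shown for IL6 and CXCL2 with the most pentamers per kilobase, for CCL2 and CSF1 among those with the fewest, and for IL11 and CXCL8 because their ratios differ in the comparisons that follow. They lie at chr4:74097590-74097619 (minus) in CXCL2, chr4:73743108-73743137 (plus) in CXCL8, chr19:55365951-55365980 (minus) in IL11, chr7:22731697-22731726 (plus) in IL6, chr17:34256406-34256435 (plus) in CCL2 and chr1:109930911-109930940 (plus) in CSF1.
CXCL2: aagtcttctATTTATTTATTTATTTATTTA
CXCL8: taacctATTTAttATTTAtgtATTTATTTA
IL11: ttccaaagccagatcttATTTATTTATTTA
IL6: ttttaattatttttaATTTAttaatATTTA
CCL2: taaacctagagtcagagagtgcactATTTA
CSF1: tttatataaagtcATTTAaatatctATTTA

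Before Bru, the lines differed in which signals they transcribed most. In U251 Control, LIF (ENSG00000128342, chromosome 22 from 30240447 to 30246851) took 35.8% of the summed FPKM of the members, CXCL8 27.9%, CSF1 16.5% and CCL2 9.85%. In U87 Control, CSF1 (ENSG00000184371, chromosome 1 from 109910242 to 109930992) took 42.5%, CXCL2 21.9%, CXCL8 15.6% and LIF 9.06%. The sums themselves were alike, 223 and 247 in units of FPKM. Of the 10 members, CXCL1 stayed under the filter of a mean FPKM of 1, and 9 were tested among 12949 genes. IL1B passed that filter through the U87 libraries alone.

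Between the untreated lines, 3 of the 8 tested members other than IL1B were past 2-fold higher in U87 and 2 past 2-fold lower, where past 2-fold means a log2 ratio above 1 or below -1 on FPKM + 0.1. Over all tested genes, 14.5% were past 2-fold higher and 16% lower in U87 Control. IL1B (ENSG00000125538, chromosome 2 from 112829751 to 112836903) was covered by 463 reads in untreated U87 and by 4 in untreated U251, a log2 ratio of 5.70 on FPKM + 0.1 and of 7.07 without the pseudocount (95% exact interval from 5.70 to 8.95). Since it was tested through U87 alone, its direction was set by the filter and is given as a description. CXCL2 (ENSG00000081041, chromosome 4 from 74097035 to 74099293) was 5.63-fold higher in U87 Control, CXCL3 3.30-fold and CSF1 2.84-fold. These genes were thus led by U87, whereas CCL2 and LIF were led by U251. CCL2 (ENSG00000108691, chromosome 17 from 34255218 to 34257203) was 16.1-fold lower in U87 Control (log2 ratio -3.92), and LIF was 3.58-fold lower. CXCL8, IL6 and IL11 differed by less than 2-fold, with log2 ratios of -0.70, 0.43 and -0.46. STEAP1B, which overlaps IL6 on the other strand, had 378 reads in U87 Control and 7 in U251 Control. Whether its reads enter the ratio of IL6 cannot be told. The reads of CXCL1 (ENSG00000163739, chromosome 4 from 73869393 to 73871242) were 8 in U87 Control and 0 in U251 Control, 3.10-fold higher with the floor of 3 reads in place of 0. The 95% exact interval of its log2 ratio had a lower bound of 0.99 and no upper one.

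**Figure D1:**
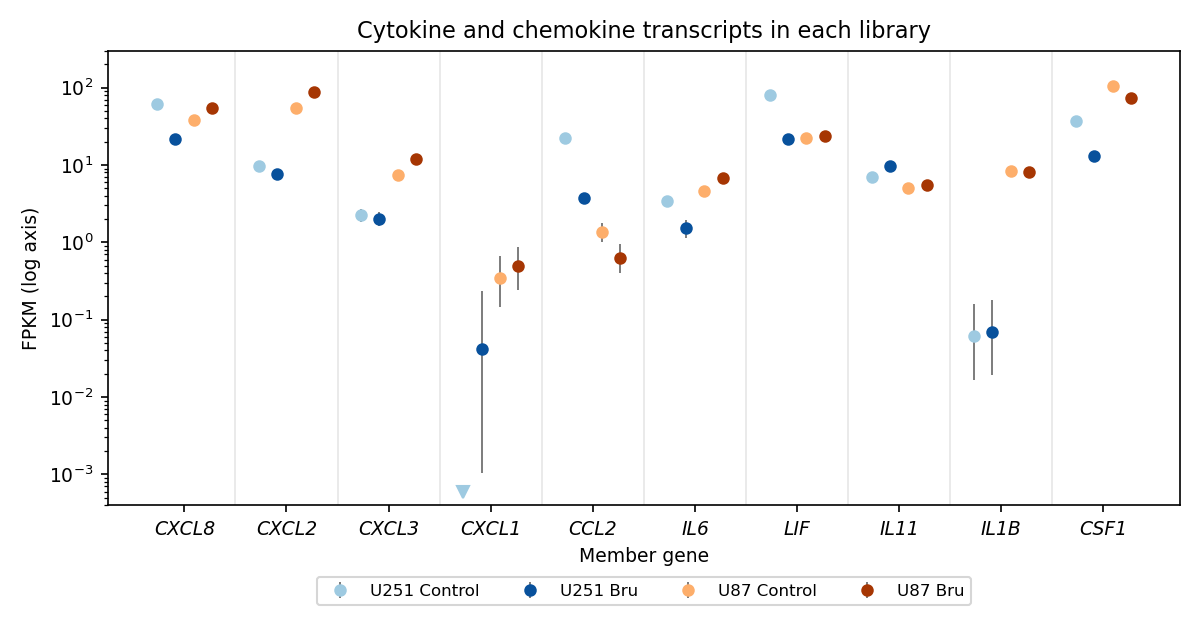
FPKM of the 10 members in each library, on a log axis, with 95% exact Poisson intervals of the reads, which cover counting error only. The triangle marks CXCL1 in U251 Control, which had 0 reads. CCL2 is highest in U251 Control, IL1B is near the floor in both U251 libraries, and LIF falls from 79.9 to 21.9 in U251 while it stays between 22.3 and 23.7 in U87.

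After 48 h of Bru, 5 of the 9 tested members fell past 2-fold in U251 and none rose past it. They were CCL2, LIF, CXCL8, CSF1 and IL6, that is, the monocyte and neutrophil attractants CCL2 and CXCL8, the macrophage factor CSF1 and a pair of the cytokines that act through IL6ST. Over all 12949 genes, 5.44% fell past 2-fold in the U251 Bru library and 3.36% rose past it. The median log2 ratio of the 9 members was -1.13, against -0.03 over all genes tested. The summed FPKM of all 10 members went from 223 to 81.1.

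The FPKM of CCL2 was 22.0 before Bru (917 reads) and 3.69 after it (136 reads). This is the largest fall among the members, 5.96-fold, with a log2 ratio of -2.54 on FPKM + 0.1 (-2.57 without the pseudocount, 95% exact interval from -2.85 to -2.31). Only 0.340% of the tested genes had a lower log2 ratio. LIF, which keeps mouse embryonic stem cells undifferentiated in culture, went from an FPKM of 79.9 (6651 reads) to 21.9 (1614 reads). Its log2 ratio was -1.86 (95% exact interval from -1.94 to -1.79), so that its level in U251 Bru was close to the 22.3 of U87 Control. The antisense gene AC004264.1, which overlaps LIF, had 302 and 64 reads in the same libraries, and without a statement that the counting used strand, reads of the pair cannot be told apart. CXCL8 (ENSG00000169429, chromosome 4 from 73740506 to 73743716) went from 62.3 (2972 reads) to 21.4 (902 reads), a log2 ratio of -1.54 (interval from -1.65 to -1.43). CSF1 went from 36.9 (4197 reads) to 13.0 (1307 reads), a log2 ratio of -1.50 (interval from -1.60 to -1.41). Both fell by nearly the same factor, 2.91-fold and 2.84-fold.

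IL6 (ENSG00000136244, chromosome 7 from 22725884 to 22732002) was a low transcript in U251, with an FPKM of 3.43 in Control (149 reads) and 1.51 in Bru (58 reads). Its log2 ratio was -1.13 (-1.18 without the pseudocount, interval from -1.65 to -0.74), and with a pseudocount of 1 it was -0.82, no longer past 2-fold. The other tested members of U251 moved less. CXCL2 had an FPKM of 9.60 and 7.70 (302 and 214 reads), a log2 ratio of -0.31 (interval from -0.58 to -0.06). CXCL3 (ENSG00000163734, chromosome 4 from 74036589 to 74038807) had 2.23 and 2.02 (104 and 83 reads), a log2 ratio of -0.14 with an interval from -0.58 to 0.28 that included 0. With the reads of CXCL1, CXCL2 and CXCL3 added up, the trio had a log2 ratio of -0.27 (interval from -0.49 to -0.05). CXCL8, whose gene lies in the same cluster and whose stretch holds a kB match like theirs, thus went down further than the trio in the same libraries.

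IL11 (ENSG00000095752, chromosome 19 from 55364389 to 55370463) was the one tested member of U251 whose interval lay above 0. It had an FPKM of 6.94 in Control (389 reads) and 9.66 in Bru (478 reads), a log2 ratio of 0.47 (interval from 0.28 to 0.67), under 2-fold. Its share of the summed FPKM of the members went from 3.11% to 11.9%. Within the IL6ST cytokines the ratios therefore ran from -1.86 for LIF to 0.47 for IL11. IL1B had 4 reads in each U251 library, and CXCL1 had 0 and 1, so that a change of either was not detectable at this depth. In all, the interval lay below 0 for 6 members (35.9% of all tested genes), above 0 for 1 (30.9%) and included 0 for 2.

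In U87 no tested member was past 2-fold in either direction (1.92% of all genes rose and 1.41% fell past it), and the median log2 ratio of the 9 members was 0.12, against -0.04 over all genes tested. The interval lay above 0 for 4 members, CXCL2, CXCL3, IL6 and CXCL8 (15.7% of all tested genes), and below 0 for CCL2 and CSF1 (28% of all tested genes). The spread over all genes was narrower than in U251, the 5th and 95th percentiles being -0.56 and 0.54 in U87 and -1.03 and 0.87 in U251.

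The 4 members on the higher side are neutrophil attractants and IL6, each with a kB match in the stretches printed above. CXCL8, CXCL2 and IL6, with the same matches, were lower with Bru in U251. CCL2, LIF and CSF1 had no stretch to search, and a link of the match to the ratios was not tested. In U87, CXCL2 went from an FPKM of 54.0 (1465 reads) to 88.2 (2304 reads). Its log2 ratio was 0.71 (95% exact interval from 0.61 to 0.80). CXCL3 had 296 and 465 reads, a log2 ratio of 0.70 (interval from 0.49 to 0.92). The near-copies thus had almost equal ratios, and their sum with CXCL1 gave 0.71 (interval from 0.62 to 0.79). IL6 had 4.65 (174 reads) and 6.80 (245 reads), a log2 ratio of 0.54 (interval from 0.26 to 0.84). STEAP1B, which overlaps IL6 on the other strand, had 378 and 333. Without a statement that the counting used strand, reads of this pair cannot be told apart either. CXCL8 had 38.4 (1577 reads) and 54.8 (2171 reads), a log2 ratio of 0.51 (interval from 0.42 to 0.61). Between 94.5% and 96.6% of the tested genes of U87 had a lower log2 ratio than these 4 genes. CXCL2 became the member with the highest FPKM in U87 Bru, at 32.2% of the sum, ahead of CSF1 at 26.9%.

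On the lower side in U87, CCL2 had an FPKM of 1.37 in Control (49 reads) and 0.636 in Bru (22 reads). Its log2 ratio was -0.99 on FPKM + 0.1 and -1.10 without the pseudocount (interval from -1.90 to -0.35), so it sat at the 2-fold limit and was past it with a pseudocount of 0.01 (-1.09). CSF1 had 105 (10252 reads) and 73.8 (6957 reads), a log2 ratio of -0.50 (interval from -0.55 to -0.46). CCL2 and CSF1 are the members with an interval below 0 in both lines. LIF had 22.3 and 23.7 (1601 and 1636 reads), IL11 5.03 and 5.48 (243 and 255 reads) and IL1B 8.28 and 8.16 (463 and 440 reads), and the interval of each included 0. Their bounds were -0.02 to 0.19 for LIF, -0.14 to 0.38 for IL11 and -0.21 to 0.17 for IL1B. CXCL1 had 8 and 11 reads, with an interval from -0.94 to 2.03.

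**Figure D2:**
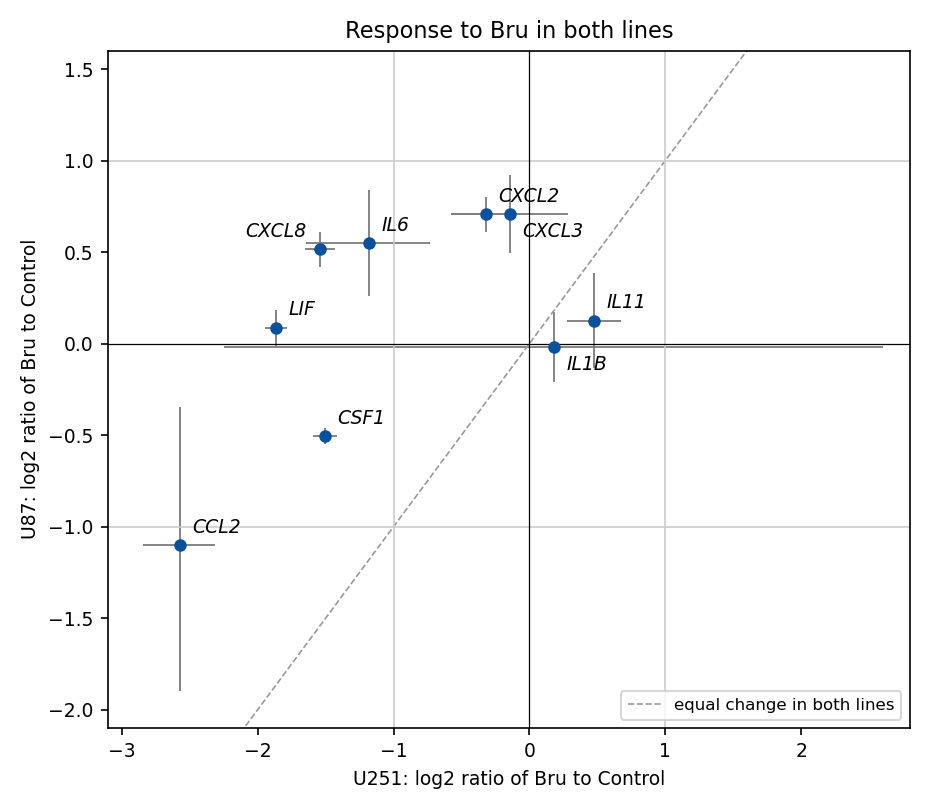
Log2 ratio of Bru to Control without a pseudocount in U251 (horizontal) and U87 (vertical) for the 9 tested members, with 95% exact intervals that cover counting error only. Grey lines mark 2-fold and the dashed line equal change. CXCL8, IL6, LIF, CSF1, CCL2, CXCL2 and CXCL3 lie above the dashed line, IL11 lies below it, and the horizontal interval of IL1B, which rests on 4 reads per U251 library, runs from -2.25 to 2.60.

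The response itself was compared between the lines as the log2 ratio of U87 minus that of U251. It was above 1 for 5 of the 9 tested members, against 5.11% of all genes, and below -1 for none, against 3.37%. CXCL8 had the largest difference, 2.05 (conditional exact interval from 1.91 to 2.20), followed by LIF with 1.94 (from 1.82 to 2.08), IL6 with 1.67 (from 1.19 to 2.28), CCL2 with 1.55 (from 0.63 to 2.28) and CXCL2 with 1.02 (from 0.75 to 1.30). CSF1 at 0.99 and CXCL3 at 0.84 were just under, and CXCL2 itself was just under 1 in 3 of the alternatives (lowest 0.98). CXCL8, IL6 and CXCL2 were lower with Bru in U251 and higher with Bru in U87, with intervals on either side of 0. The fall of CXCL2 in U251, a log2 ratio of -0.31, was smaller than those of CXCL8 and IL6. Its interval there ended at -0.06, and with reads scaled by their sum its log2 ratio was -0.23. Whether that interval leaves out 0 thus depends on the scaling. CCL2 and CSF1, by contrast, were lower in both lines and more so in U251. The difference of IL11 was -0.35 (from -0.68 to -0.02), and that of IL1B, from -2.63 to 2.24, could not be resolved with 4 reads per U251 library. These intervals compare the libraries and cover counting error only, and 49.8% of all tested genes had one that left out 0.

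The list of receptors for the members held 13 genes. CXCR1 and CXCR2, the receptors of the CXC members, had 0 reads in every library, as did the scavenging receptor ACKR1, and the floor of 3 reads lies at an FPKM of at most 0.0693, 0.0533 and 0.0726 for them. CCR2, the receptor of CCL2, had 2 reads in U251 Control and 0 in the other libraries, IL1R2 had at most 2 reads, and ACKR2 had between 0 and 9. By contrast, IL6ST, the shared signalling chain of IL6, LIF and IL11, had an FPKM of 23.2 and 26.9 in U251 and 34.8 and 38.5 in U87, in the order Control and Bru. LIFR was at 2.52 and 2.90 in U251 and 4.50 and 4.10 in U87, and IL6R was at 1.42 and 1.12 in U251 and 2.20 and 1.98 in U87. The remaining receptors were mostly U87 transcripts. IL11RA had 10 and 6 reads in U251 against 154 and 134 in U87, CSF1R had 20 and 18 against 123 and 94, and IL1R1 had 57 and 58 against 362 and 387.

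Of the 13 receptors, 5 were tested, and 1 of them fell past 2-fold in U251 (5.44% of all tested genes) and none in U87 (1.41%). This was IL1RAP, the accessory chain of the IL1 receptor, whose FPKM went from 3.63 (881 reads) to 1.33 (285 reads) in U251, a log2 ratio of -1.38 that was no longer past 2-fold with a pseudocount of 1, and was 1.43 and 1.47 in U87. The difference of its response between the lines was 1.42 (interval from 1.18 to 1.80). The median log2 ratio of the 5 receptors was 0.16 in U251 and 0.04 in U87, where the median of the members was -1.13 and 0.12.

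Few other chemokines were transcribed. Of 24 further chemokine genes, 16 had at most 3 reads in every library and 2 were tested, CCL26 and CXCL16. CCL26 fell past 2-fold in U87 (1.41% of all tested genes), from 44 to 18 reads (log2 ratio -1.18, interval from -2.11 to -0.42), which did not hold with a pseudocount of 1, and had 50 and 44 reads in U251. Of 30 further cytokine genes, 8 were tested, and 1 fell past 2-fold in each line (5.44% of all tested genes in U251 and 1.41% in U87), both on few reads and neither with a pseudocount of 1. CSF3, the neutrophil growth factor, had 5 and 0 reads in U251 and 1436 and 1327 in U87, and IL18 had 9 and 1 reads in U87 and 1500 and 939 in U251. The interval of CSF3 in U251 had no lower bound and an upper one of 0.30, that of IL18 in U87 ran from -8.57 to -0.27. In the line that transcribes them, the log2 ratio was -0.06 for CSF3 and -0.50 for IL18. IL1B and CSF3 were thus a pair of U87 transcripts with ratios near 0 in that line, and IL18 was a U251 transcript.

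Among 20 transcription factors of these genes, 19 were tested, and 2 fell past 2-fold in U251 (5.44% of all tested genes) and 2 rose past it in U87 (1.92%). Those that fell in U251 were JUND, an AP-1 subunit, from an FPKM of 192 to 88.6 (log2 ratio -1.12), and CEBPD, a C/EBP factor, from 14.0 to 6.32 (log2 ratio -1.13). In U87 both had ratios near 0, -0.02 and -0.05. Those that rose in U87 were FOSB, from 8.84 to 28.8 (log2 ratio 1.69), and ATF3, from 9.47 to 27.7 (log2 ratio 1.54). Both were already higher in U251 Control, at 48.3 and 36.1, and had ratios of 0.07 and 0.20 there. The NF-kB subunits, named here after their values were seen, were under 2-fold. The log2 ratio in U251 was 0.89 for NFKB2, 0.76 for RELA and 0.61 for RELB, with intervals above 0, and 0.11 for NFKB1, whose interval included 0. In U87 it was 0.27, 0.31, 0.39 and -0.10 in the same order. REL, a further subunit and under the filter, was at -0.20 in U251 and 0.02 in U87, with intervals that included 0. Some other factors, also named after their values were seen, were lower in U251 and higher in U87. Their log2 ratios in U251 and U87 were -0.70 and 0.32 for JUN, -0.34 and 0.85 for FOS, and -0.68 and 0.48 for NFKBIZ. CEBPB, by contrast, was at 0.64 and 0.04. The median of the 19 factors was -0.19 in U251 and 0.11 in U87.

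A further list held 14 negative regulators of NF-kB, cytokine receptor and MAP kinase signalling, several of them targets of the pathway they restrain. Of these, 11 were tested, and NFKBIA and TNFAIP3 rose past 2-fold in U251 (3.36% of all tested genes) while none fell past it (5.44%). NFKBIA, which holds NF-kB in the cytoplasm, went from an FPKM of 10.6 (530 reads) to 23.9 (1052 reads), a log2 ratio of 1.16 (interval from 1.02 to 1.32). TNFAIP3, an enzyme that shuts NF-kB signalling off, had 1.16 and 3.89 (123 and 364 reads), a log2 ratio of 1.66 (interval from 1.45 to 2.05). In U87 their log2 ratios were 0.41 and 0.42, on the same side of 0 as CXCL8, CXCL2, CXCL3 and IL6 there. In U251 they rose while CXCL8, IL6 and CCL2 fell. A link between these regulators and the members was not tested. The median of the 11 regulators was 0.37 in U251 and 0.10 in U87.

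Of the 13 tested factors that bind or degrade AU-rich mRNAs, none was past 2-fold in either line, and their median was -0.31 in U251 and -0.04 in U87. Set beside the nonamers counted above, the log2 ratios in U251 were 0.47 for IL11 with 6 and -0.31 for CXCL2 with 5. They were -1.86 for LIF and 0.07 for IL1B with 2 each, and -1.54 for CXCL8 and -0.14 for CXCL3 with 1 each. The members with none in the 3′ UTR counted, IL6, CSF1 and CCL2, were at -1.13, -1.50 and -2.54, all past 2-fold. Other transcripts of CCL2, whose 3′ UTR may lie elsewhere, were not counted, so its place in this group is uncertain. The part of the AU-rich elements in these ratios was not tested. Among 6 genes for the maturation of IL1B, 4 were tested, and NLRP1, an inflammasome sensor, fell past 2-fold in U251 (FPKM 1.57 and 0.704, log2 ratio -1.05) and none in U87, against 5.44% and 1.41% of all tested genes. With a pseudocount of 1, NLRP1 was no longer past 2-fold. CASP1, which cleaves IL1B, had 163 and 176 reads in U87.

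**Figure D3:**
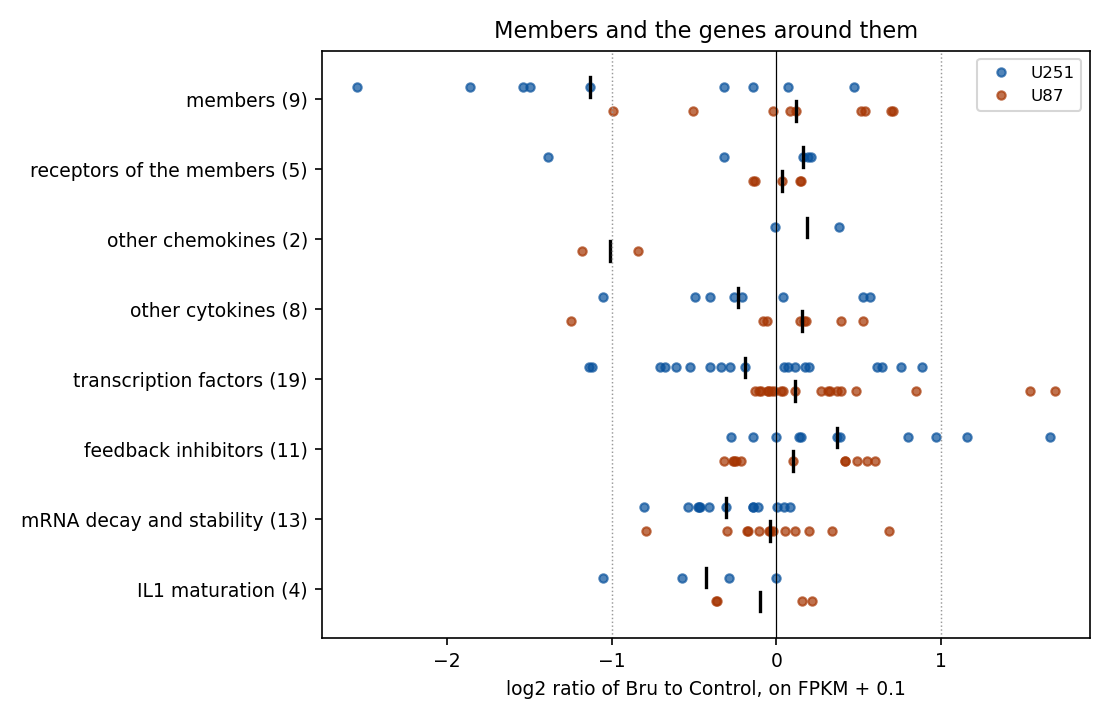
Log2 ratio, Bru over Control, with 0.1 added to FPKM, for the tested genes of each list in U251 and U87, with the number of tested genes in brackets. Each point is 1 gene, black bars are medians and dotted lines mark 2-fold. The medians of the members are -1.13 in U251 and 0.12 in U87, and those of the feedback inhibitors are 0.37 and 0.10.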

How the data were processed

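RNA of U251 and U87 cells was sequenced as paired-end reads after preparation with the NEB Next Ultra kit, in 4 libraries. The values the authors deposited are FPKM, in 1 file per library that also lists the length and coordinates of each gene. The submitters' processing notes list HISAT2 2.0.5, StringTie 1.3.3b, featureCounts 1.5.0-p3 and DESeq2 1.16.1, with no roles. The notes name hg18 as the build, whereas the coordinates of all 58735 genes equal those of GENCODE release 29 (GRCh38), which was used here. Samples were grouped by their titles.

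Dividing FPKM times length by the value of 1 fragment gave whole numbers for 100% of the values above 0 (largest deviation 4.35e-05), and these fragments are called reads. Genes averaging an FPKM of 1 or more in the 4 libraries were tested, with 0.1 added to FPKM before log2 ratios were taken. Intervals are 95% exact Clopper-Pearson intervals of how the reads split between both libraries of a pair, and conditional exact intervals of the odds ratio for differences between lines, both without a pseudocount (numpy 2.4.6, scipy 1.17.1). With 1 library per condition no p-value was given across genes. The scripts were tested on simulated data. Alternatives were other pseudocounts, scalings, filters and a call rule that adds the interval.

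The members, the gene lists and the rule for named genes were chosen with earlier results of these data known. Named were all members, their receptors, up to 4 genes per list past 2-fold in either line, and the 3 genes nearest to each of the 2 members with the most reads. Coding sequences were aligned with biopython 1.88. Motifs were searched with regular expressions in RefSeq promoters (GRCh38.p14), and AU-rich elements in the longest annotated 3′ UTR of the basic GENCODE transcripts. Protein sequences were not used here.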

Additional observations from a re-analysis of the deposited data

Results flagged for a closer look

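For 8 of the 9 tested members, the log2 ratio of Bru to Control differed between the lines by more than the counting error of the reads, given as U87 minus U251. The difference was 2.05 for CXCL8, 1.94 for LIF, 1.67 for IL6, 1.55 for CCL2, 1.02 for CXCL2, 0.99 for CSF1, 0.84 for CXCL3 and -0.35 for IL11. The comparison was the conditional exact interval of the odds ratio of the reads. Each line has 1 library per condition, so that lines and libraries cannot be told apart in it, and 49.8% of all 12949 tested genes passed the same limit.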

How the results depend on the processing

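In U251, the number of members below a log2 ratio of -1 was 4 or 5 under each alternative, and the number above 1 was 0. IL6 was no longer past 2-fold with a pseudocount of 1 (-0.82) and was not tested with a minimum mean FPKM of 5. In U87, the number of members below -1 went from 0 to 1 with a pseudocount of 0.01 and with FPKM rescaled to TPM, CCL2 in both. The difference between the lines was above 1 for 4 to 6 members, CSF1 being added when the median log2 ratio was set to 0 and CXCL2 lost with a pseudocount of 1, with TPM and with reads scaled by their sum. Rescaling moved the median of all genes by at most 0.07 on the log2 scale. In U251 the intervals of CXCL2 and of the summed trio ended at -0.06 and -0.05. Whether they leave out 0 thus depends on the scaling. In the lists, with a pseudocount of 1 the numbers of genes that fell past 2-fold went to 0 for the receptors, other cytokines and IL1 maturation in U251 and for other chemokines and other cytokines in U87. With a minimum mean FPKM of 0.1, other chemokines in U251 gave 2 falls (CX3CL1 and CXCL14), other cytokines gave 1 rise in each line (IL34), and the negative regulators gave 1 fall in U251 (SOCS1) and 1 rise in U87 (DUSP2). Of the alternatives for single members, 181 of 186 moved the log2 ratio by less than its counting error, and no ratio past 2-fold changed sign. The largest move was that of IL1B between the untreated lines, 3.13 with a pseudocount of 1, since it rests on 4 reads in U251 Control. No paired analysis was possible because each condition has 1 library and the labels give no replicate numbers. Depth limits CXCL1 in every library and IL1B in U251.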

Other observations

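Among 10851 protein-coding genes, likeness to a member was read from the 4 values of log2(FPKM + 0.1), centred on their mean, as a Euclidean distance. With only 4 libraries this is a description. CSF1, the member with the most reads, was nearest to CD276 (distance 0.125), an immune checkpoint ligand, whose log2 ratios of Bru to Control were -1.42 in U251 and -0.50 in U87. It was followed by DPF3 (0.149), a chromatin factor, and SH2B3 (0.168), an adaptor that dampens cytokine receptor signalling. LIF was nearest to DUSP4 (0.276), a phosphatase of the MAP kinases, with an FPKM of 36.0 and 11.5 before and after Bru in U251 and of 9.23 and 9.89 in U87. CNIH2 (0.301) and CMTM7 (0.326) came next.

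The antisense gene AC004264.1 overlaps LIF on the other strand. Beside the 302 and 64 reads in U251, it had 45 and 69 in U87. IL6 is overlapped by STEAP1B on the other strand, with 7 and 8 reads in U251 and 378 and 333 in U87.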
